A study of Drosophila melanogaster with 6 samples.

Results

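The 88 genes described here encode nuclear subunits of the oxidative phosphorylation complexes of Drosophila melanogaster. They were taken from the 17558 genes of the expression table by symbol: names starting with ND-, Sdh, UQCR-, COX and a digit, or ATPsyn, which name complexes I, II, III, IV and V. Of the 88, 63 were main copies, 24 were paralogues whose symbol adds an L to the name of a subunit, and 1, Sdhaf3, encodes an assembly factor of complex II. The study sequenced poly-A selected RNA of adult males that had been injected with M. luteus, a Gram-positive bacterium, 12 h earlier. It held 3 control libraries and 3 from flies that overexpressed CR33942, a long noncoding RNA called NANPI by the series. The control strain was Gal80ts; Tub-Gal4/P{CaryP}attP40 and the overexpressing strain Gal80ts; Tub> NANPI. Both carry Gal80ts, a temperature-sensitive repressor of Gal4, and the tubulin promoter drives Gal4 in nearly all cells. All 6 libraries came from injected males, so the comparison bears on overexpression during infection and not on infection itself. Strain and overexpression changed together and cannot be told apart, and the labels name neither a dissected tissue nor the number of flies behind a library, so each p-value reflects only library-to-library spread, part of which may be technical.

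Complexes I to IV pass electrons from NADH and succinate to oxygen, complexes I, III and IV pump protons across the inner mitochondrial membrane, and complex V, the ATP synthase, uses that gradient to make ATP. Complex II, succinate dehydrogenase, is also an enzyme of the citric acid cycle and is encoded wholly in the nucleus, while the other complexes also hold subunits made from the mitochondrial genome. In flies many of these genes have a second copy, and several such copies are known to be expressed mainly in the testis, whereas the main copies serve all tissues and are abundant in flight muscle.

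The label of the overexpressing flies was checked first on the RNA itself. CR33942 stood at 18.7, 19.5 and 19.0 FPKM (fragments per kilobase of exon, scaled for sequencing depth) in the control libraries and at 553, 589 and 563 FPKM in the overexpressing libraries, a log2 change of 4.83 ± 0.05 (SE). Libraries held between 15084193 and 17551534 reads over the 15276 genes for which whole reads could be recovered, and among the oxidative phosphorylation genes listed above 0 ATPsynC alone gave no whole reads. The recovered reads carry counting error, and PCR copies are not independent molecules. Of the 12326 genes tested, limma called 274, or 2.22%, at an adjusted p under 0.05, 104 higher and 170 lower. That count depended on the libraries used and was 459 without overexpressing replicate 2 and 72 without control replicate 2.

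The main copies were abundant, and no oxidative phosphorylation gene passed the limma test between the groups. The 63 main copies had a median level of 242 FPKM over the 6 libraries, beside 9.56 FPKM over the protein-coding genes that share no exon base with another gene, with group medians of 240 FPKM in controls and 244 FPKM in overexpressing flies. The 24 paralogues had a median of 28.7 FPKM. Of the 88 genes, 85 passed the filter of at least 1 FPKM in at least 3 libraries and were tested: 61 main copies, 23 paralogues and Sdhaf3. Limma called 0 of the 85 higher and 0 lower, against the 2.22% of all tested genes, and the lowest adjusted p among them was 0.116. At an unadjusted p under 0.05 there were 5 of the 85, where 15.7% of all tested genes had one. A second test, voom on the recovered reads, called 3.69% of the genes it tested and 1 of the members, SdhBL. The groups did not overlap for 6 of the 85 (7.06%), 5 of them higher and 1 lower in overexpressing flies, where 20.7% of all tested genes had groups that did not overlap.

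**Figure D1:**
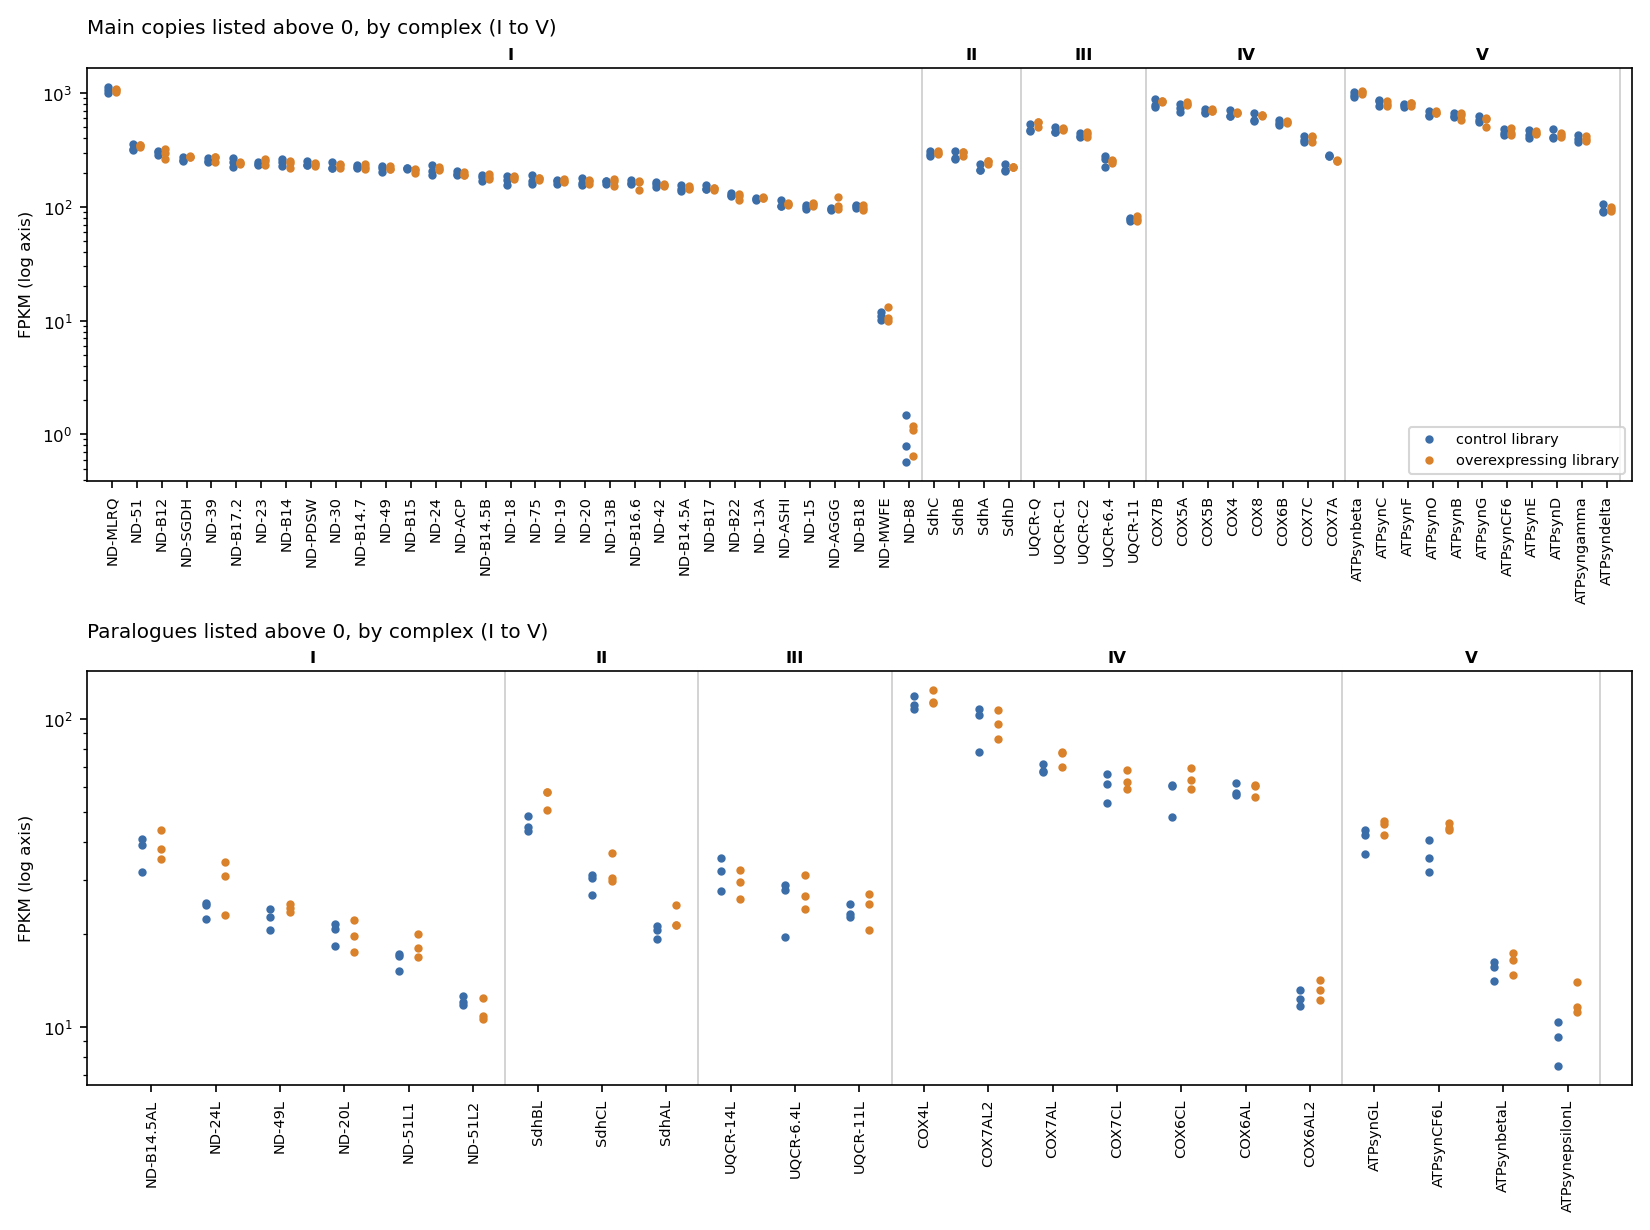
Level of each oxidative phosphorylation gene listed above 0 in each library, in FPKM on a log axis, for main copies (top) and paralogues (bottom), with 3 control (blue) and 3 overexpressing (orange) libraries per gene. Single values reach 1144 FPKM among main copies and run from 7.46 to 124 FPKM among paralogues, and the blue and orange points of most genes overlap.

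The intervals around the changes of main copies were narrow. The 95% interval of the log2 change, overexpressing minus control on the log2(FPKM + 1) scale, lay wholly within 0.5 of 0, a 1.41-fold change, for 81 of the 85 genes, among them 60 of the 61 main copies and 20 of the 23 paralogues. The exception among main copies was ND-B8, which had between 5 and 12 reads a library. Over all tested genes the interval lay within 0.5 of 0 for 10130 of 12326. The median half-width of the interval was 0.15 for main copies, and 0.20 both for paralogues and for all tested genes. Intervals of paralogues were therefore no narrower than usual. The log2 changes of main copies ran from -0.15 to 0.18 and those of paralogues from -0.11 to 0.41. Among main copies 40 were above 0 and 21 below, with a median of 0.02, and among paralogues 20 were above 0 and 3 below, with a median of 0.11, beside a median of 0.002 over all tested genes. The median of the paralogues was 0.033 without overexpressing replicate 2 and 0.050 without control replicate 2. The median of the main copies was -0.008, 0.064 and 0.0045 when control replicates 1, 2 and 3 were left out in turn, and 0.040 and 0.013 when overexpressing replicates 2 and 3 were. In such bulk RNA, more cells of a type and more RNA per cell cannot be told apart.

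**Figure D2:**
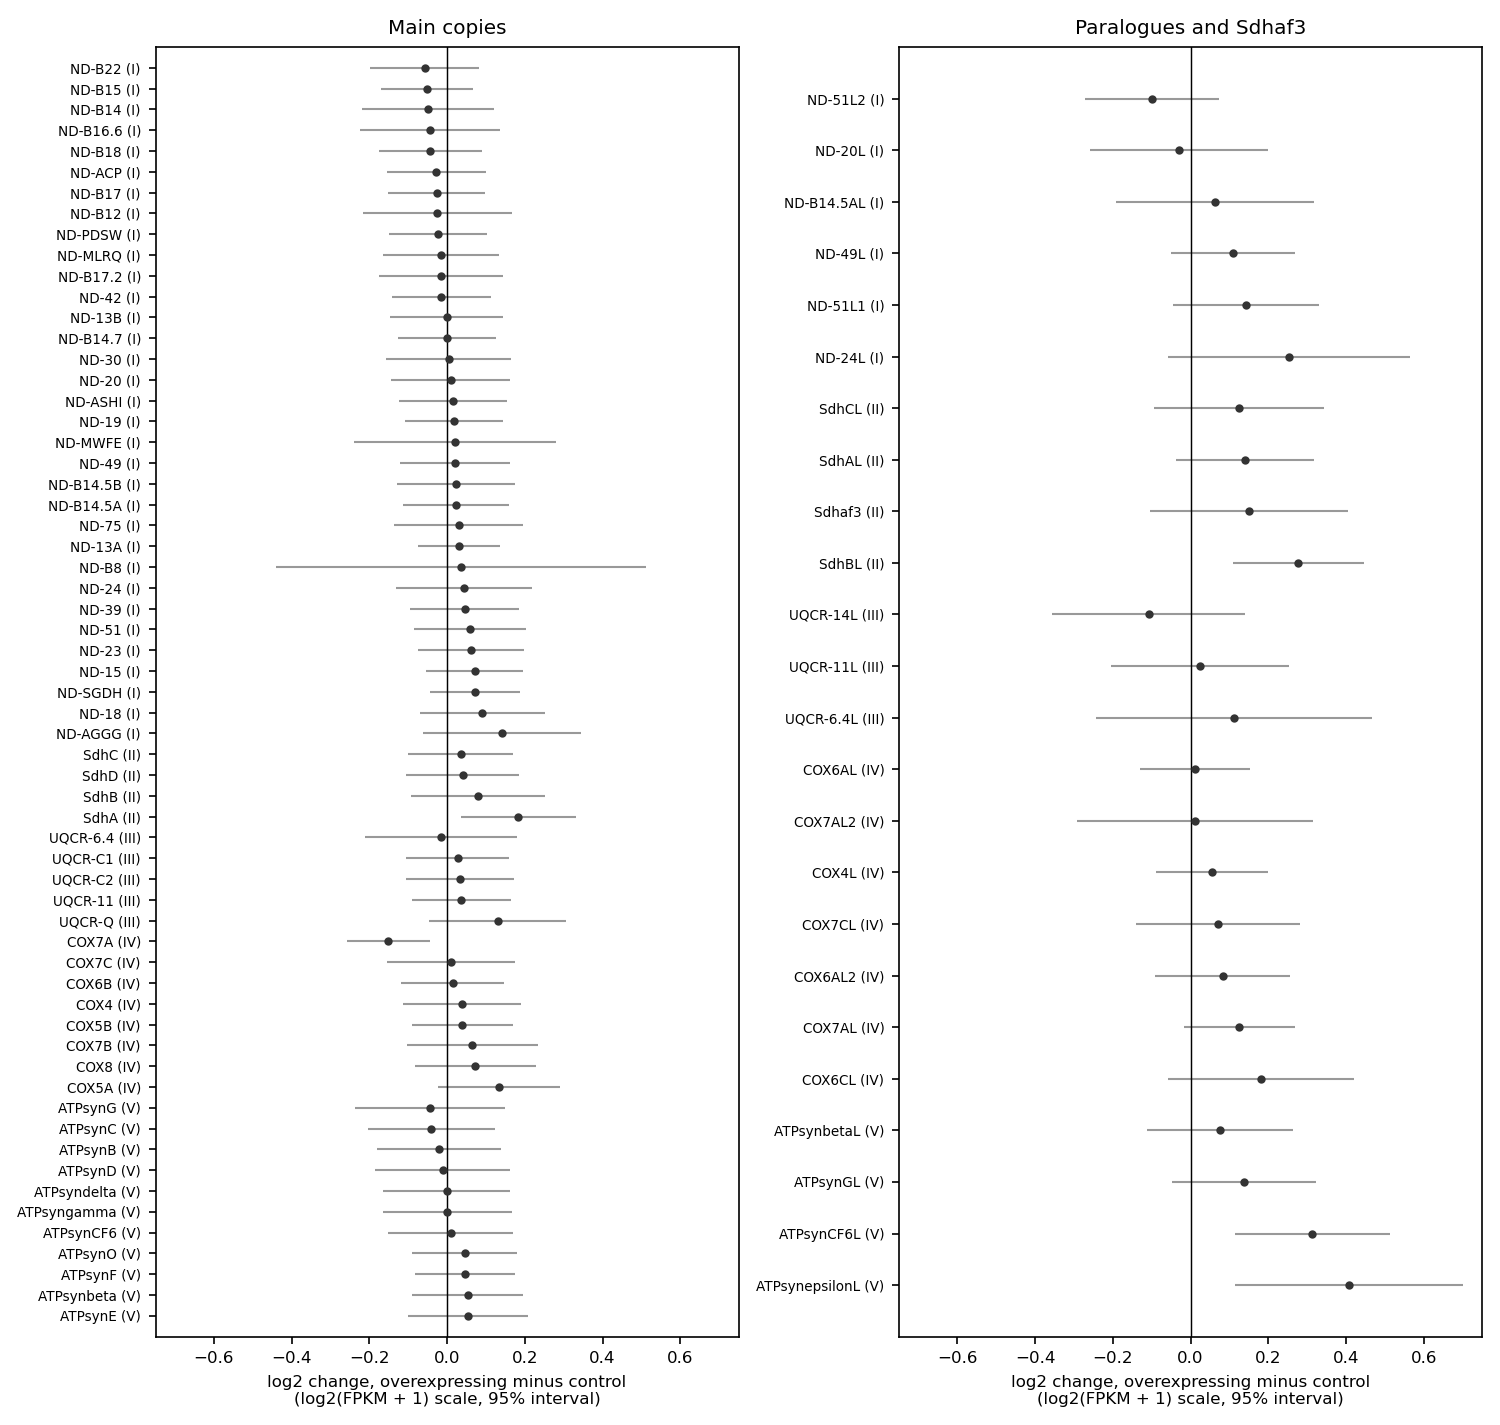
Log2 change of each tested gene, overexpressing minus control, with its 95% interval from limma, for 61 main copies (left) and for 23 paralogues and Sdhaf3 (right), with the complex in brackets. The intervals of SdhA and COX7A among main copies and of SdhBL, ATPsynCF6L and ATPsynepsilonL among paralogues do not include 0, and no adjusted p was below 0.116.

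Complex II was the complex with the largest share of genes whose libraries separated, with 3 of its 7 tested subunit genes, all higher in overexpressing flies. Such separation was found in 20.7% of all tested genes, and limma called none of the 3. The median log2 change of its 4 main copies was 0.06, which became 0.025 or 0.13 when control replicate 1 or 2 was left out. SdhBL is the paralogue of SdhB, the iron-sulphur subunit that hands electrons from succinate towards ubiquinone. Its position is chromosome X, 18894446 to 18896581 (plus strand), the only one of the 24 paralogues on the X. SdhBL stood at 44.7, 43.5 and 48.3 FPKM in the control libraries and at 50.5, 57.8 and 57.9 FPKM in the overexpressing libraries. Every overexpressing library lay above every control library, and the means of 45.5 ± 2.53 and 55.4 ± 4.20 FPKM (SD, n = 3 each) differed 1.22-fold. The log2 change was 0.28 ± 0.07 (SE), which did not pass in limma (adjusted p = 0.116) and passed in voom on recovered reads (adjusted p = 0.0482). Over the 14 alternative settings its adjusted p lay between 0.0482 and 0.313, and voom on all libraries was the only one that called it.

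The flavoprotein subunit of complex II, which oxidises succinate, is encoded by SdhA, and both SdhA and its paralogue had separated groups. SdhA stood at 210, 237 and 209 FPKM in controls and at 253, 239 and 253 FPKM in overexpressing flies. The highest control value and the lowest overexpressing value, both from replicate 2, nearly met. The log2 change of SdhA was 0.18 ± 0.06 (SE; limma adjusted p = 0.223), the largest rise of any main copy in any complex. SdhAL, an intronless copy on chromosome 3L at 11922610 to 11924757 on the minus strand, stood at 20.6, 19.2 and 21.3 FPKM in controls and at 21.4, 24.9 and 21.4 FPKM in overexpressing flies. The difference of SdhAL came mostly from overexpressing replicate 2, and its adjusted p in limma was 0.436. SdhB, SdhC and SdhD, the iron-sulphur subunit and the membrane anchors, had overlapping groups and log2 changes of 0.08, 0.03 and 0.04, and SdhCL one of 0.12. Sdhaf3, which helps the iron-sulphur subunit mature, stood at 15.9 ± 2.21 and 17.7 ± 1.88 FPKM (SD, n = 3 each; limma adjusted p = 0.580).

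Complex I, the NADH dehydrogenase, had 33 tested main copies, with 19 above 0 and 14 below, a median log2 change of 0.015 and no gene with separated groups. That median was -0.018, -0.011 and -0.009 without control replicate 1 or 3 or overexpressing replicate 3, 0.0005 when overexpressing replicate 1 was left out, and 0.045 and 0.036 without control and overexpressing replicate 2. ND-AGGG, an accessory subunit of the membrane arm, had the largest rise. Its libraries stood at 95.7, 94.4 and 97.2 FPKM in controls and at 102, 122 and 95.4 FPKM in overexpressing flies. Overexpressing replicate 2 was again the highest, the groups overlapped, and limma's adjusted p was 0.505. ND-B22, another accessory subunit, had the largest fall, at 128 ± 4.25 and 123 ± 7.51 FPKM (SD, n = 3 each; limma adjusted p = 0.720). The core subunits ND-75 and ND-51, singled out here after their values were seen, carry iron-sulphur clusters and, in ND-51, the NADH site, and had log2 changes of 0.03 and 0.06.

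Within complex I the gene ND-MLRQ stood apart by level. At 1069 FPKM over the 6 libraries it was the most abundant of all 88 genes, with 1075 ± 67.6 FPKM in controls and 1063 ± 36.6 in overexpressing flies (SD, n = 3 each), while the next of its complex, ND-51, had 338 FPKM. Complex IV had a median main copy level of 646 FPKM, complex V of 578, complex III of 343 (432 without UQCR-14, listed at 0), complex II of 261 and complex I of 176 FPKM. The mammalian counterpart of ND-MLRQ, first described in complex I, has since been assigned to complex IV. Its level in these libraries was above that of every COX main copy, of which COX7B was the highest at 828 FPKM.

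Complex III, the cytochrome bc1 complex, had 5 tested main copies, all with overlapping groups and a median log2 change of 0.033, which was 0.005, 0.012 and 0.015 without control replicate 3, control replicate 1 and overexpressing replicate 3, and 0.069 without control replicate 2. UQCR-Q, a small subunit and the most abundant of them, stood at 465, 540 and 476 FPKM in controls and at 556, 503 and 561 FPKM in overexpressing flies. Each replicate 2 ran against its own group, and the adjusted p in limma was 0.470. UQCR-6.4, the main copy of complex III with the lowest log2 change, had one of -0.02. UQCR-C1, a core protein, differed by 0.03.

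Complex IV, cytochrome c oxidase, reduces oxygen, and its nuclear subunits surround a catalytic core made from the mitochondrial genome. Among the 85 tested genes COX7A was the only one with every overexpressing library below every control library. COX7A, on chromosome 3R at 8339944 to 8341043 on the minus strand, stood at 282, 289 and 278 FPKM in controls and at 260, 253 and 253 FPKM in overexpressing flies. Its replicates were close together, with means of 283 ± 5.43 and 255 ± 3.90 FPKM (SD, n = 3 each), a ratio of 0.900. The log2 change was -0.15 ± 0.05 (SE) and did not pass in limma (adjusted p = 0.173) or in voom (0.153). The other 7 main copies of complex IV were all above 0, from 0.010 in COX7C to 0.13 in COX5A, and COX7B differed by 0.07. COX5A stood at 741 ± 55.0 and 812 ± 26.8 FPKM (SD, n = 3 each; limma adjusted p = 0.394). The median over the 8 was 0.039, which became 0.009, 0.087 and 0.020 when control replicates 1, 2 and 3 were left out in turn, and 0.021 when overexpressing replicate 3 was.

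Complex V had 11 main copies with log2 changes between -0.04 and 0.05 and a median of 0.0005, a narrower range than in any other complex. The sign of the median followed the libraries used, from -0.038 without overexpressing replicate 3 to 0.064 without control replicate 2. ATPsynbeta, the catalytic subunit and the most abundant, stood at 977 ± 54.2 and 1013 ± 32.4 FPKM (SD, n = 3 each). ATPsynE and ATPsynG, small subunits of the membrane part, had the highest and lowest log2 changes, 0.05 and -0.04.

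Of the 4 paralogues of complex V, 2 had groups that did not overlap, and limma called 0 of the 4. Among the 23 tested paralogues of all complexes 4 did not overlap (17.4%), beside 20.7% of all tested genes. ATPsynCF6L, the paralogue of a subunit of the stalk that holds the catalytic head in place, is at 5011444 to 5012133 of chromosome 3L (minus strand). It stood at 35.5, 31.8 and 40.5 FPKM in controls and at 44.3, 46.1 and 43.7 FPKM in overexpressing flies. The groups did not overlap, and the means of 35.9 ± 4.32 and 44.7 ± 1.23 FPKM (SD, n = 3 each) differed 1.24-fold, with a log2 change of 0.31 ± 0.09 (SE; limma adjusted p = 0.131). ATPsynepsilonL, the paralogue of a subunit of the rotating central stalk, is at 10121773 to 10122320 of chromosome 3R (plus strand). It had 10.4, 9.28 and 7.46 FPKM in controls and 11.2, 14.0 and 11.6 FPKM in overexpressing flies, from between 64 and 138 reads a library. Its groups were again separate, and the log2 change of 0.41 ± 0.13 (SE; limma adjusted p = 0.175) was the largest of the 85, with a 95% interval of 0.11 to 0.70. The other paralogues of this complex, ATPsynGL and ATPsynbetaL, had overlapping groups and log2 changes of 0.14 and 0.08.

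Across the complexes the median log2 change of tested paralogues was 0.09 in complex I, 0.14 in complex II, 0.03 in complex III, 0.07 in complex IV and 0.23 in complex V. Those of complex I ran from ND-51L2 at -0.10 to ND-24L at 0.25, a paralogue of a subunit of the NADH-oxidising module. ND-24L stood at 25.28, 22.50 and 24.99 FPKM in controls and at 31.0, 34.2 and 23.1 FPKM in overexpressing flies. Overexpressing replicate 3 lay inside the control range, and the adjusted p in limma was 0.419. UQCR-14L had the lowest log2 change of the paralogues, -0.11, with 31.7 ± 3.85 and 29.4 ± 3.17 FPKM (SD, n = 3 each). In complex IV COX4L was the most abundant paralogue at 114.6 FPKM, with a log2 change of 0.06, and COX6CL had the largest change, 0.18.

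Each paralogue was also set against its own main copy within a library, a ratio of FPKM values that does not depend on the scaling between libraries. For 22 of the 24 pairs both genes were listed above 0, and the paralogue had between 1.45% (COX6AL2 against levy, the gene of COX6A) and 36.0% (COX7AL2 against COX7A) of the level of its main copy, with a median of 10.5%. COX6AL2 shares 67.0% of its exon bases with Ir75d, so its level depends on counting rules that are not given. The next lowest pair was ATPsynbetaL against ATPsynbeta, at 1.59%. The mean ratio was higher in overexpressing flies for 17 pairs and lower for 5, and 20 of the 22 pairs had overlapping groups. COX7AL, which lies beside COX7A on 3R at 8343669 to 8344310 on the opposite strand, had 25.3%, 23.4% and 24.2% of its level in controls and 30.1%, 30.7% and 27.6% in overexpressing flies. COX7A was lower in all overexpressing libraries, and COX7AL itself had overlapping groups, at 68.8 ± 2.17 and 75.2 ± 4.66 FPKM (SD, n = 3 each; limma adjusted p = 0.376). ATPsynepsilonL had 1.76%, 1.46% and 1.24% of the level of sun, the gene of the epsilon subunit, in controls and 1.94%, 2.39% and 2.06% in overexpressing flies. The level of sun was also lower in every overexpressing library, at 609 ± 23.0 and 575 ± 10.8 FPKM (SD, n = 3 each; limma adjusted p = 0.521). These were the 2 pairs whose groups did not overlap, each with an exact two-sided permutation p of 0.1, the smallest that 3 against 3 libraries allow. The p-values were not adjusted for the 22 pairs read. Among 22 pairs, some separation at this p is likely even without a group difference, and no share over other gene pairs was computed. ATPsynCF6L had 7.95% ± 1.24 and 9.82% ± 0.901 of the level of ATPsynCF6, and SdhBL had 16.3% ± 2.02 and 18.7% ± 1.99 of that of SdhB (SD, n = 3 each), both with overlapping groups.

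**Figure D3:**
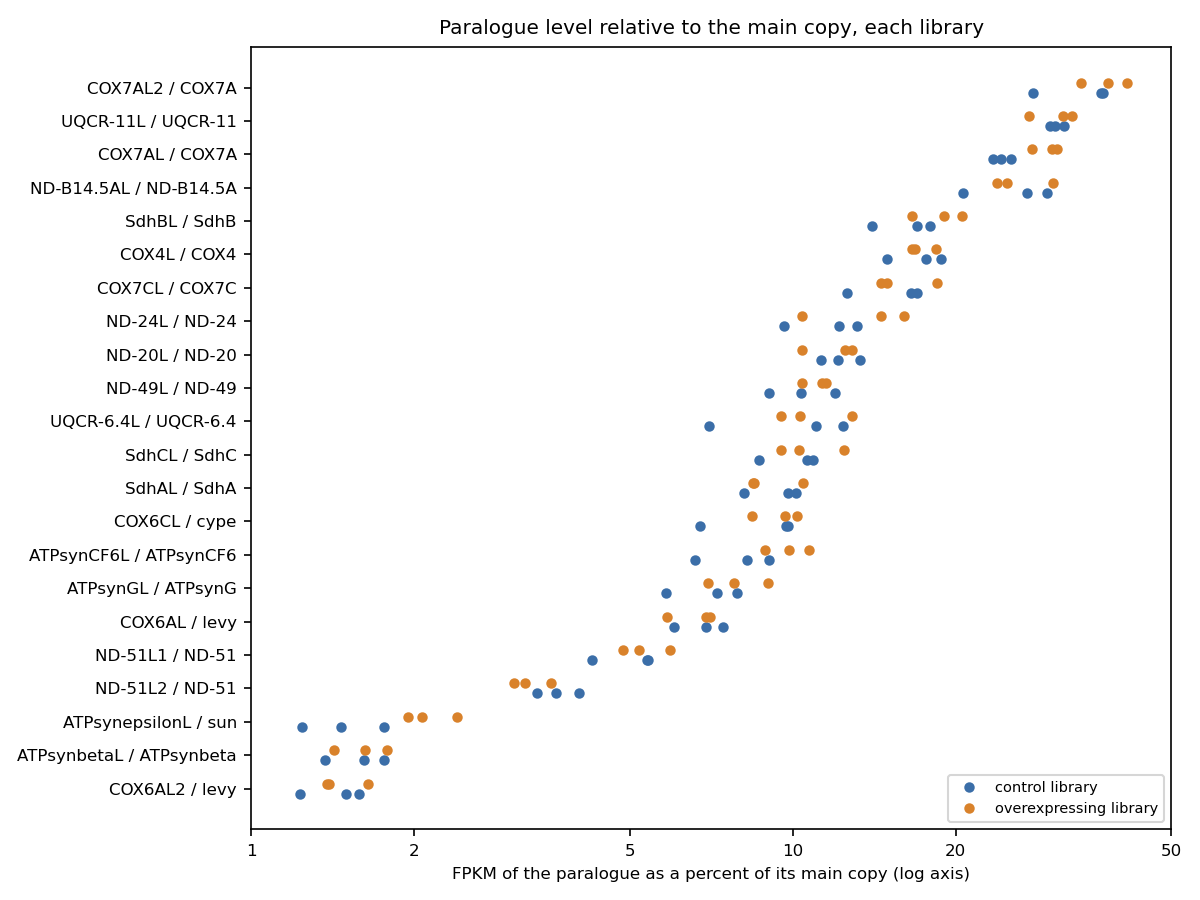
FPKM of each paralogue as a percent of its main copy, on a log axis, in the 3 control (blue) and 3 overexpressing (orange) libraries, for the 22 pairs with both genes listed above 0. The pairs span 1.45% to 36.0% on average, and the colours separate in the rows of COX7AL and ATPsynepsilonL. The lowest, COX6AL2, shares 67.0% of its exon bases with another gene.

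Summed over all 88 genes apart from Sdhaf3, the paralogues made up 4.10% ± 0.394 of the FPKM in controls and 4.30% ± 0.259 in overexpressing flies (SD, n = 3 each). The share was 8.97% ± 0.695 and 9.08% ± 0.307 in complex IV, 8.63% ± 0.939 and 9.34% ± 0.841 in complex II, 1.92% ± 0.193 and 2.04% ± 0.162 in complex I, and 1.59% ± 0.205 and 1.83% ± 0.141 in complex V. In complex III, where the main copy UQCR-14 is listed at 0, it was 4.49% ± 0.725 and 4.33% ± 0.634. Complex III alone had the lower mean in overexpressing flies. These sums leave out subunits with other names, such as levy and cype in complex IV; with both added, in a calculation chosen after seeing the data, the share in complex IV was 6.94% ± 0.577 and 7.02% ± 0.301. The ranges of the groups overlapped in every complex. In complex V, where the means differed most in proportion, the lowest overexpressing value of 1.70% lay below the highest control value of 1.73%. The paralogues also differed from the main copies in gene structure: 6 of the 24 had 1 exon in every annotated transcript (ND-24L, ND-51L1, ND-B14.5AL, SdhAL, UQCR-14L and COX6AL), against 0 of the 63 main copies. On the X lay 12 main copies and 1 paralogue, and in 5 pairs the main copy was on the X and the paralogue on an autosome. The 11 tested X-linked genes had a median log2 change of 0.015 and the autosomal ones of 0.036.

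In replicate 2 of both groups, main copies and paralogues deviated in opposite directions. As deviations from each gene's mean over the 6 libraries on the log2(FPKM + 1) scale, the median of the main copies was -0.06, 0.08 and -0.05 in control replicates 1, 2 and 3 and 0.006, -0.02 and 0.05 in the overexpressing replicates. That of the paralogues was -0.01, -0.16 and 0.01 in controls and 0.002, 0.14 and 0.03 in overexpressing flies. Control replicate 2 was the highest of the 6 libraries for 37 of the 61 main copies and the lowest for 15 of the 23 paralogues. Overexpressing replicate 2 was the highest for 13 of the 23 paralogues.

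Markers of other tissues were read in the same libraries. Testis markers (genes of spermatocytes and spermatids) showed the same 2 libraries at the extremes: of 20 tested markers control replicate 2 was the lowest library for 14 and overexpressing replicate 2 the highest for 12. Their summed level was 4357 to 4837 FPKM in controls and 4514 to 4954 FPKM in overexpressing flies, none of the 21 markers in the table was listed at 0 in all libraries, limma called 0 of the 20 (with 0 at an unadjusted p under 0.05), and their median log2 change was 0.002. Muscle markers, 17 of them, had a median log2 change of 0.09 with 15 above 0 and 0 called by limma (1 at an unadjusted p under 0.05). Control replicate 3 was the lowest library for 15 of these 17, and their summed level was 3335 to 4104 FPKM in controls and 3921 to 4145 FPKM in overexpressing flies. Voom called 0 testis and 0 muscle markers. For comparison, limma called 2.22% and voom 3.69% of the genes each tested, and 15.7% had an unadjusted p under 0.05 in limma. The part of testis or muscle RNA in the values of the oxidative phosphorylation genes was not tested.

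**Figure D4:**
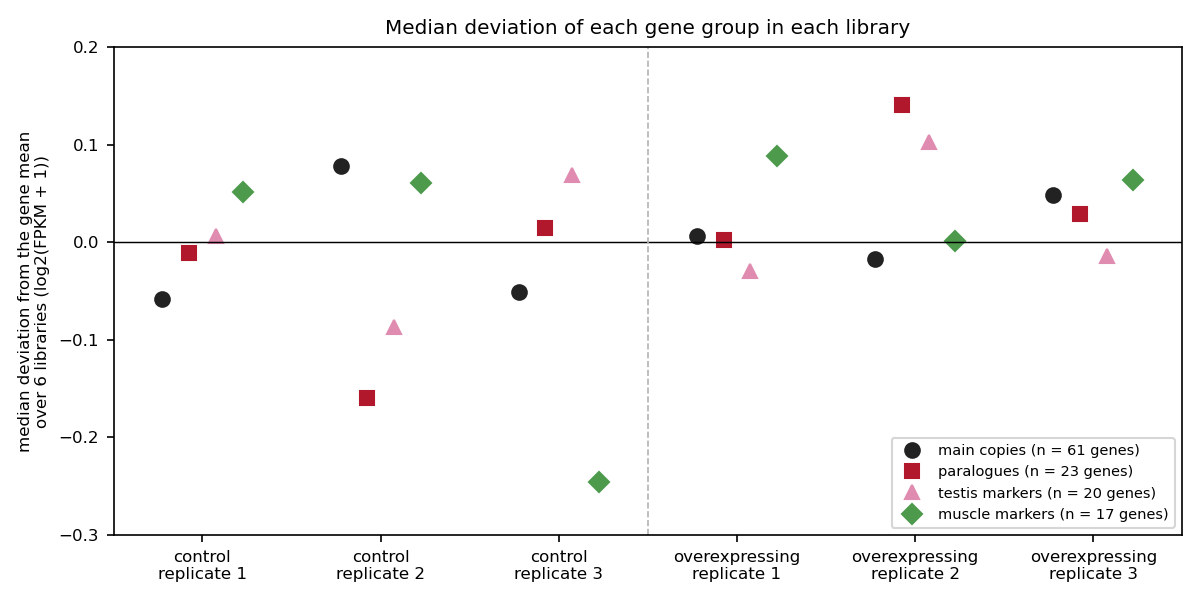
Median deviation from the gene mean over 6 libraries, on the log2(FPKM + 1) scale, of 61 main copies, 23 paralogues, 20 testis markers and 17 muscle markers in each library. Control replicate 2 has the paralogues at -0.16 and the main copies at 0.08, and overexpressing replicate 2 has the paralogues at 0.14.

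Other genes of the pathway were read from lists chosen with earlier results known. Limma called 0 of 7 subunits named otherwise, such as levy, cype and blw (0 had an unadjusted p under 0.05), and levy, the most abundant, stood at 871 ± 72.2 and 900 ± 47.0 FPKM (SD, n = 3 each). It also called 0 of 7 electron and nucleotide carriers, 0 of 9 assembly factors, 0 of 15 citric acid cycle genes and 0 of 11 regulators of mitochondrial genes, with 0, 1, 2 and 0 of them at an unadjusted p under 0.05. None of these 5 lists held a gene that voom called. The groups did not overlap for 1 of the 7 otherwise named subunits (sun, lower), 1 carrier (Mpcp2, lower) and 1 assembly factor (Sirup, higher). The same held for 3 citric acid cycle genes (kdn and Men-b higher, Idh lower) and 0 regulators. The shares over all tested genes were 2.22% called by limma, 15.7% at an unadjusted p under 0.05 and 20.7% without overlap. Sirup, named after its values were seen, assists the assembly of complex II and is the counterpart of SDHAF4. It stood at 70.1, 76.6 and 77.8 FPKM in controls and at 101, 87.3 and 83.8 FPKM in overexpressing flies, with separate groups and a log2 change of 0.27 ± 0.08 (SE; limma adjusted p = 0.163). Also named after its values were seen, kdn, the citrate synthase gene, stood at 240 ± 23.8 and 275 ± 2.48 FPKM (SD, n = 3 each, limma adjusted p = 0.266), again with separate groups. In the other direction, Idh and Mpcp2 had log2 changes of -0.14 and -0.10 (limma adjusted p = 0.300 and 0.391). Those 2 and Men-b were likewise named after their values were seen. Of the 9 assembly factors 6 were below 0, as were 7 of the 15 citric acid cycle genes.

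Of 15 transcripts of the mitochondrial genome, which supplies the remaining subunits of complexes I, III, IV and V, limma called 1 lower and 1 higher. The complex I subunit gene mt:ND4 stood at 884, 891 and 864 FPKM in controls and at 625, 689 and 589 FPKM in overexpressing flies. All 3 overexpressing libraries were lower, with a log2 change of -0.47 ± 0.07 (SE; limma adjusted p = 0.0172). Leaving out any control replicate, or overexpressing replicate 1, ended this call (adjusted p up to 0.080), as did the replicate number as a block (0.0537). The small ribosomal RNA mt:srRNA stood at 303, 252 and 248 FPKM in controls and at 483, 488 and 388 FPKM in overexpressing flies, a log2 change of 0.76 ± 0.11 (SE; limma adjusted p = 0.0191). It did not pass when control replicate 2, control replicate 3 or overexpressing replicate 1 was left out (adjusted p up to 0.0875). The RNA was poly-A selected, so these values count only the ribosomal RNA that the selection kept. The large ribosomal RNA mt:lrRNA, 1 of the other 13, had 38584 FPKM and a log2 change of -0.07 (limma adjusted p = 0.811). The other 13 did not pass in limma, and mt:ATPase6, a complex V subunit gene, passed as higher in voom (adjusted p = 0.0428; limma adjusted p = 0.140). Of the 15, 6 had an unadjusted p under 0.05 in limma and 6 had groups that did not overlap, 3 of them higher and 3 lower, and the median log2 change was -0.10. Among all tested genes limma called 2.22%, 15.7% had such an unadjusted p and 20.7% had groups that did not overlap.

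The 3 members that were not tested were listed at 0 in all 6 libraries: ND-MNLL of complex I, UQCR-14 of complex III and COX5BL, a paralogue of complex IV. They were also the 3 members of the 88 whose exon bases all lie in exons of another gene. UQCR-14, on X at 16286288 to 16286988 on the plus strand, lies within exons of CG32576 on the opposite strand, which had 10.6 to 12.0 FPKM. COX5BL, on 2L at 6559431 to 6560133 on the plus strand, lies opposite Trmt6, which had 2.28 to 3.30 FPKM, and ND-MNLL shares its whole exon on the minus strand of X, at 7893053 to 7893798, with CG45089, which was listed at 0 as well. Over the protein-coding genes of the table, 347 of 372 with all exon bases shared were listed at 0 (93.3%), against 218 of 9018 with none shared (2.42%). Where all sharing was with the opposite strand, 63 of 70 were listed at 0 (90%). The value 0 of these 3 genes is therefore given as listed, with no level or limit of the genes drawn from it. UQCR-14L, at 30.5 FPKM, was not set against its main copy in the pairs. The zeros do enter the median levels and the summed paralogue shares. Without them the median level was 245 FPKM over main copies and 30.5 FPKM over paralogues. The overlapping genes in this and the next paragraph were named after their values were seen.

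**Figure D5:**
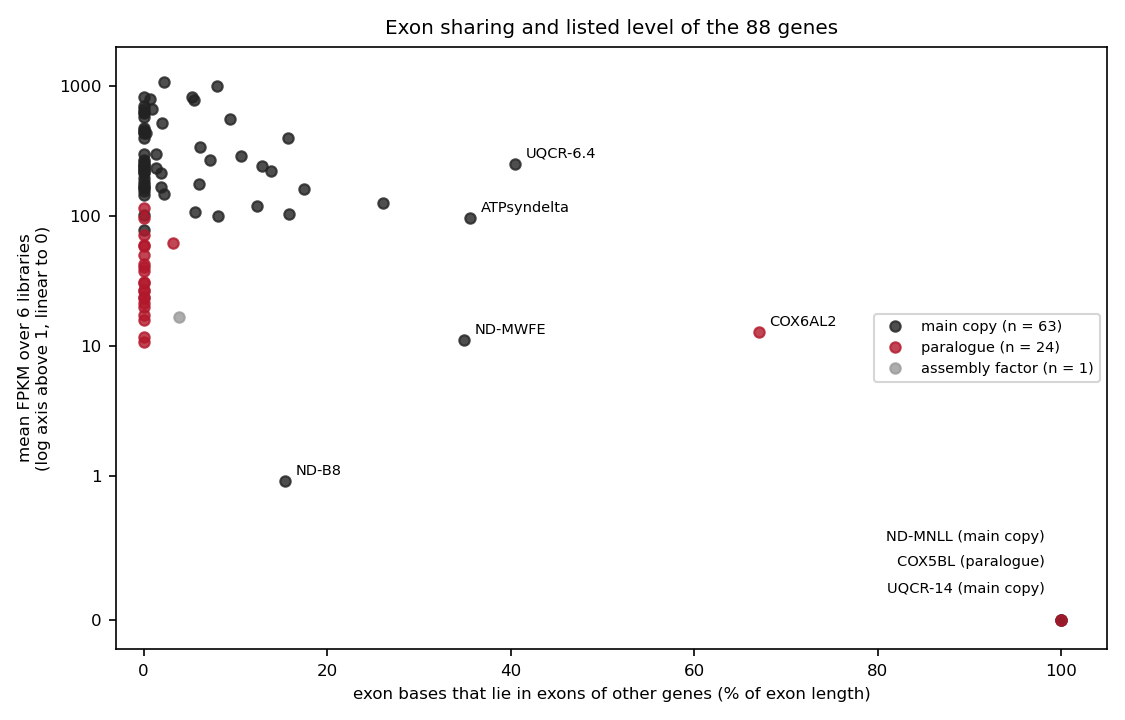
Mean FPKM over 6 libraries of each of the 88 genes (log axis above 1, linear to 0) against the percent of its exon bases that lie in exons of other genes. The 3 genes at 100% are at 0, and ND-B8 and ND-MWFE are the lowest of the main copies above 0.

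Partial sharing was found in other members too: 37 of the 88 shared some exon bases and 8 shared over 20%. ND-MWFE, a complex I subunit with 35.0% of its exon bases shared, had 9.87 to 13.2 FPKM, and ND-B8, with 15.4% shared with Gs1l (48.2 to 53.6 FPKM) on the opposite strand, had 0.565 to 1.49 FPKM. The levels of both genes, singled out after their values were seen, lay far below the next complex I main copy, ND-B18 at 100.1 FPKM. COX6AL2, the paralogue with the most shared bases (67.0% with Ir75d on its own strand) among those listed above 0, had 12.8 FPKM. The sources used here do not state whether counting used strand or dropped reads that fall in more than 1 gene. Levels of these genes carry that limit, while group differences were computed from values made in the same way in all 6 libraries.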

How the data were processed

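RNA bound to poly-T beads was sequenced in paired ends, per the labels' protocols, which name HISAT2 2.0.5 for alignment, featureCounts 1.5.0-p3 for counting and DESeq2 for the authors' own comparison. The submitters' processing notes name dm6 as the build. The deposited values are FPKM, 1 per gene and library. The step from counts to FPKM and the strand setting are not given in the sources used here. Symbols, exons and coordinates came from the Ensembl release 115 annotation of the fly genome, which paired 17252 of 17558 gene identifiers with a symbol; the other 306 entered no list.

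From the deposited FPKM, group differences were fitted with limma 3.58.1 in R 4.3.3 (lmFit, eBayes with trend) on log2(FPKM + 1); p-values were two-sided and adjusted by Benjamini-Hochberg over the 12326 genes at 1 FPKM or more in at least 3 of 6 libraries, and a threshold of 0.05. Log2 changes on this scale understate those of low genes. Multiplied by exon length and 1 factor per library, FPKM gave whole reads (within 0.01 of a read) for 15276 of 15918 genes above 0 (96.0%), and these factors departed by at most 0.269% from size factors by the median of ratios; limma's voom was run on those reads and called 438 of 11864 genes. The fit was tested on simulated data.

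The members and all lists were chosen with earlier results of these data known. Genes were named by rule: CR33942; members called; in each complex the most abundant main copy and those with the largest rise and fall; tested paralogues with their main copies; and from each companion list the called genes or the 2 most abundant. Others are said to have been singled out after their values were seen. A main copy is any member whose symbol does not add an L to that of a subunit. Listed symbols that matched no symbol in the expression data (Cyt-c-p, Ndufaf3, Ndufaf4, Atpaf1, Atpaf2, Fum1, wupA, FASN1, VAChT) were not used here. With 306 identifiers lacking a symbol, this does not show that those genes are absent. Alternatives were another pseudocount, filters, scalings, variance model and test, the replicate number as a block, and each library left out.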

Additional observations from a re-analysis of the deposited data

How the results depend on the processing

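Of the 85 tested members 0 were called under 13 of 14 alternatives to the limma fit on log2(FPKM + 1), and voom on recovered reads called 1, SdhBL. Over all tested genes the count of 274 became 438 with voom and 110 with the replicate block, and lay between 72 and 459 with 1 library left out. The companion list count of 2 was 1 with the replicate block and 0 to 3 with 1 library left out. Same-numbered control and overexpressing libraries did not deviate together (correlations of -0.05, -0.18 and 0.03), so the values gave no sign that the numbers pair samples. With 3 libraries a group these correlations cannot exclude a pairing. The medians of main copies, paralogues and the main copies of each complex moved by less than their spread between libraries. That spread comes from the same 6 libraries, so with 1 left out this could hardly fail and does not show stability. In those fits the median ran from -0.008 to 0.064 for main copies of all complexes. It ran from -0.018 to 0.045 for those of complex I and from -0.038 to 0.064 for those of complex V. The median over all tested genes, 0.002, became 0.023 on the TPM scale and -0.003 with median centring. With otherwise named subunits added, after seeing the data, the paralogue share of complex III fell from 4.49% to 2.56% in controls and that of complex V from 1.59% to 1.33%. Of 840 values of 60 named genes, 831 kept their side of the threshold, 8 lost it, 1 gained it and none reversed. Most of these genes were uncalled and far from the threshold, so the 831 says little about how firm a call was. All 8 losses were of mt:ND4 and mt:srRNA, the only called genes among the 60 besides CR33942. Apoltp, whose call also failed in such fits, is outside this count. Among uncalled values 44 small ones changed sign. With 3 libraries a group, changes inside the intervals given could not be shown, and levels of genes that share exons depend on counting rules that are not given in the sources used here.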

Other observations

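Tissues other than testis and muscle were also read from their markers. Limma called 0 of 10 eye, 0 of 11 midgut, 0 of 7 accessory gland and 0 of 7 nervous system markers, with 4, 2, 1 and 0 at an unadjusted p under 0.05 (voom called 1 midgut marker, betaTry, and 0 of the others), and median log2 changes of 0.10, -0.09, 0.004 and 0.03. Of all genes tested in limma, 2.22% were called and 15.7% had an unadjusted p under 0.05. All 7 tested fat body markers were below 0, and Apoltp, which encodes a lipid carrier protein of the blood, fell from 22.4 ± 1.71 to 17.0 ± 0.909 FPKM (SD, n = 3 each; limma adjusted p = 0.0485). With 1 library left out, its call held only when that library was overexpressing replicate 2 (adjusted p up to 0.171 otherwise). The summed fat body marker level was 230 to 294 FPKM in controls and 159 to 224 FPKM in overexpressing flies.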
